A study of Mus musculus with 10 samples.

Results

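The 35 genes described here carry glucose into the heart muscle cell, split it to pyruvate and pass the pyruvate to lactate or into the mitochondrion. They were taken as a list of gene symbols, and every probe set whose symbol in the array annotation was one of them was kept. This gave 60 of 22690 probe sets, for 30 of the 35 genes, where 12394 genes in all had a probe set of their own. Of the 60, 57 were not control probe sets, and 46 of those were bright enough to be tested, for 26 genes. Gpi1, Pfkfb1, Eno1, Mpc2 and Pdhx had no probe set under their own symbol in the annotation and were not analysed here. Gapdh was read by 3 control probe sets and by others that it shares with pseudogenes. Slc2a3, Pfkfb3 and Eno2 lay below the brightness limit with all of their probe sets.

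The right ventricles of 10 mice (strain 129SV) were profiled on Affymetrix arrays, with 1 array for each mouse, to ask how plakoglobin (+/-) hearts respond to endurance training. The groups were 4 trained plakoglobin (+/-) mice, 4 trained wildtype (wt) mice, 1 untrained plakoglobin (+/-) mouse and 1 untrained wildtype mouse. In each trained group 2 mice were male and 2 female, all aged 6 months, whereas the untrained mice were females aged 10 months. Training was forced swimming at 35 °C on 6 occasions per week, in bouts of 5 min that were lengthened by steps until they reached 90 min. Because the untrained mice were older, training cannot be told apart from age. Plakoglobin (+/-) mice are heterozygous for the gene, which encodes a protein of the junctions between heart muscle cells, and littermate pairs were not marked in the labels.

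The heart burns mainly fatty acids, and glucose is the fuel it turns to when workload, insulin or oxygen supply change. Glucose enters through facilitative transporters, is trapped by hexokinase, is committed to glycolysis by phosphofructokinase and leaves the pathway as pyruvate. Pyruvate is reduced to lactate by lactate dehydrogenase, or it enters the mitochondrion and is oxidised to acetyl-CoA by the pyruvate dehydrogenase complex, which the Pdk kinases switch off by phosphorylation. Most steps have a muscle-type isoform and a form that is widespread in other tissues, so the balance of isoforms is a common readout of metabolic remodelling in the heart.

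Many glycolytic genes carry in their promoters the core letters of the hypoxia response element, ACGTG, or the E-box CACGTG, which contains that core. The sequences upstream of the start sites are shown for 4 members that stand at different steps and that all hold the core: the glucose transporter Slc2a1, hexokinase Hk2, phosphoglycerate kinase Pgk1 and lactate dehydrogenase Ldha. They are the 250 bases before an annotated start, from RefSeq on build GRCm38.p6, and capitals mark ACGTG or its reverse complement CACGT.
Slc2a1, chr4:119108495-119108744, plus strand: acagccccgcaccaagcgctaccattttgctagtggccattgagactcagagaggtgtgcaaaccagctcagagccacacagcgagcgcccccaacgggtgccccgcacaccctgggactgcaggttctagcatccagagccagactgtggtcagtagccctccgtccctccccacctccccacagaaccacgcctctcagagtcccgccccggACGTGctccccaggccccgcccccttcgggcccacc
Hk2, chr6:82774455-82774704, minus strand: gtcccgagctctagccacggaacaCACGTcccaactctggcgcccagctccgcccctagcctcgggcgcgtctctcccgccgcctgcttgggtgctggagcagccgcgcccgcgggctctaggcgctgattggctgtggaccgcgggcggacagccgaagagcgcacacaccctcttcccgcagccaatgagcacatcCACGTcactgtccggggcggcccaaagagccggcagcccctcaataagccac
Pgk1, chrX:106186850-106187099, plus strand: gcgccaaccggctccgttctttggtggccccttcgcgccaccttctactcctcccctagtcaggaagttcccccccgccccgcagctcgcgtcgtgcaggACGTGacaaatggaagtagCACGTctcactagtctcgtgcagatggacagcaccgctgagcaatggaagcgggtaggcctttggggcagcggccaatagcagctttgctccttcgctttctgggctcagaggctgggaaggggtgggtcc
Ldha, chr7:46845554-46845803, plus strand: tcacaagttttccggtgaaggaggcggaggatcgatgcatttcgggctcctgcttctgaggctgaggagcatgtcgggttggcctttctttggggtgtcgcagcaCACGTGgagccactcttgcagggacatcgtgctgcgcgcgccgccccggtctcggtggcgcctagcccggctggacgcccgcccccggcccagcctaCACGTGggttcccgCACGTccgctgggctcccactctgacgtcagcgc
Slc2a1 held 1 match, Hk2 and Pgk1 held 2 each and Ldha held 5, counted over both strands so that a palindromic CACGTG counts on each. Another Ldha promoter in RefSeq, at chr7:46846832-46847081 and not shown, held 0. RefSeq listed 53 such promoters for 33 of the 35 genes, without Slc2a3 and Slc2a4. ACGTG was found on either strand in 17 of these 53 promoters, which is 32.1%, against 16.6% of all 32851 promoters of that length. CACGTG was found in 11.3% of the member promoters and in 6.02% of all. Other letters looked for differed too. GGGCGG was found in 47.2% of the member promoters and in 32.7% of all, and TATAAA in 3.77% and 12.4%. A higher share in the member promoters was therefore not particular to the core. Among the 25 genes with both a promoter and a tested probe set, the 12 that held the core had a median log2 change with training of -0.09. The 13 in which the core was not found had a median of 0.04. A match of letters in these windows is a description of sequence and no more.

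The 7 ventricular myocyte markers looked at (Myh6, Myl2, Tnnt2, Tnni3, Actc1, Ttn and Pln) were all well above the lowest signals on every array, with summed signals of 1318636 to 1739890 in trained mice, 1924870 in the untrained plakoglobin (+/-) mouse and 1676225 in the untrained wildtype mouse. The 6 skeletal muscle markers summed to 1310.5 to 2992.5 in trained mice and to 2232 and 1684 in the untrained pair. Jup, which encodes plakoglobin, was read by 1 probe set at 1992, 3519.9, 2229.7 and 2363 in the trained plakoglobin (+/-) mice and at 2928, 3207, 3996 and 4322 in the trained wildtype mice. Replicate 2 of the plakoglobin (+/-) mice lay within the wildtype range, and the limma log2 difference was -0.53 (unadjusted p = 0.0485, adjusted p = 1). The untrained mice stood the other way round, with 3157 on the array labelled plakoglobin (+/-) and 2387 on the array labelled wildtype. On 3 arrays the GAPDH control gave a signal at its 3' end more than 2 times that at its 5' end: trained plakoglobin (+/-) replicate 1 (2.98), trained wildtype replicate 1 (2.50) and trained wildtype replicate 2 (17.8), against 0.849 to 1.02 on the other 7. This ratio is a usual gauge of RNA integrity and of labelling, and values without these 3 arrays are given beside several results. In bulk tissue, fewer cells of a type and less RNA per cell cannot be told apart.

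No member passed the test for training. Of the 46 member probe sets tested with limma, 0 had an adjusted p below the threshold of 0.05, while 0.626% of all 13576 probe sets did. At an unadjusted p under 0.05 the count was 2 of 46, against 8.68% of all. The median log2 change, trained minus untrained, was -0.07 over the members and -0.0022 over all probe sets, with 17 member changes above 0 and 29 below. For 3 member probe sets the whole trained group exceeded the untrained pair, against 4.63% of all probe sets, and for 2 it stood below the pair, against 4.61%. Both directions together made 5 of 46 members and 9.24% of all. Since sex was a term and no untrained mouse was male, the fitted change was that of the 4 trained females against the 2 untrained females, and the trained males added to the estimate of spread.

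**Figure D1:**
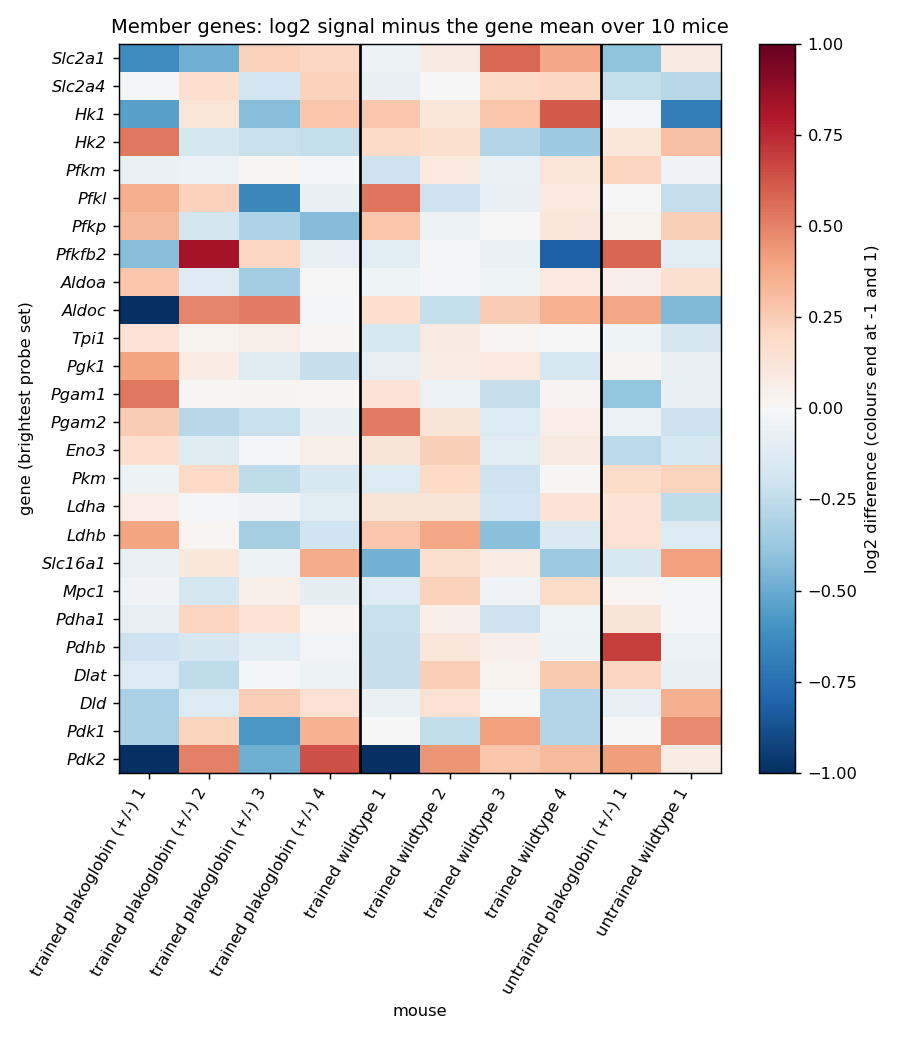
Log2 signal of the 26 tested member genes (down the page, 1 probe set each) in the 10 mice (across), as the difference from the mean of each gene over the mice; red is higher and blue lower. No block of genes is red or blue throughout the trained mice. The darkest cells are Aldoc in trained plakoglobin (+/-) replicate 1 and Pdk2 in that mouse and in trained wildtype replicate 1, all blue.

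Among the glucose transporters, Slc2a4 (GLUT4), the insulin- and contraction-responsive carrier of muscle, gave signals of 32225, 36435, 28445 and 38064 in the trained plakoglobin (+/-) mice, 30921, 32357, 37011 and 37428 in the trained wildtype mice, 27599.9 in the untrained plakoglobin (+/-) mouse and 26809 in the untrained wildtype mouse on probe set 1415958_at. Every trained mouse was above both untrained mice, and the trained genotypes overlapped. The log2 change was 0.32 (SE 0.18, unadjusted p = 0.103, limma adjusted p = 0.714), with a 95% interval of -0.08 to 0.71. Its other probe set, 1415959_at, gave a log2 change of -1.30 (SE 1.15, limma adjusted p = 0.854). Slc2a1 (GLUT1), the basal carrier of most cells, stood at 1285, 1427, 2332 and 2292 in the trained plakoglobin (+/-) mice, 1924, 2111, 2961 and 2603 in the trained wildtype mice, 1504 in the untrained plakoglobin (+/-) mouse and 2103 in the untrained wildtype mouse. The untrained values lay inside the trained range. Its change was 0.39 (SE 0.28, limma adjusted p = 0.809), and its other 2 probe sets gave -0.10 and -0.05. Slc16a1 (MCT1), which moves lactate across the cell membrane, stood at 22774, 25648, 23089 and 30918 in the trained plakoglobin (+/-) mice, 17202, 26709.8, 25215 and 18537 in the trained wildtype mice, 21384 in the untrained plakoglobin (+/-) mouse and 31713 in the untrained wildtype mouse. The untrained wildtype mouse was the highest of all and the untrained plakoglobin (+/-) mouse lay inside the trained range. In limma the log2 change was -0.09 (SE 0.26, limma adjusted p = 0.967). With the untrained plakoglobin (+/-) mouse left out it was -0.50, and with the untrained wildtype mouse left out 0.31. Slc2a3 (GLUT3), the carrier typical of neurons, was dim on all 4 probe sets, the brightest reading 152 to 1069 in trained mice, 888 in the untrained plakoglobin (+/-) mouse and 584 in the untrained wildtype mouse.

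Of the hexokinases, which phosphorylate glucose, Hk2 is the insulin-regulated muscle form and Hk1 the widespread one. Hk2 gave 29445, 18074, 17546 and 17323 in the trained plakoglobin (+/-) mice, 23381, 22839.8, 16647 and 15923 in the trained wildtype mice, 22154 in the untrained plakoglobin (+/-) mouse and 24994 in the untrained wildtype mouse. A trained plakoglobin (+/-) mouse was the highest of all, and 5 of the 8 trained mice lay below both untrained mice. The log2 change was -0.37 (SE 0.25, unadjusted p = 0.166, limma adjusted p = 0.787), and without the 3 arrays of high GAPDH ratio it was -0.48 (limma adjusted p = 0.181). Hk1 gave 7777, 12268, 8416 and 13692 in the trained plakoglobin (+/-) mice, 13607, 12208, 13715 and 17319 in the trained wildtype mice, 11203 in the untrained plakoglobin (+/-) mouse and 7011 in the untrained wildtype mouse on its brighter probe set. All trained mice lay above the untrained wildtype mouse, and the untrained plakoglobin (+/-) mouse lay among the trained ones. The log2 change of 0.50 (SE 0.32, limma adjusted p = 0.758) moved to -0.07 without the untrained wildtype mouse and to 1.06 without the untrained plakoglobin (+/-) mouse.

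Phosphofructokinase, the committing step, has the muscle form Pfkm, the liver form Pfkl and the platelet form Pfkp. Pfkm gave 73775, 74097, 78408 and 76451 in the trained plakoglobin (+/-) mice, 66990.5, 82531, 73609.9 and 84187 in the trained wildtype mice, 89473 in the untrained plakoglobin (+/-) mouse and 75282 in the untrained wildtype mouse. The untrained plakoglobin (+/-) mouse was the highest of all and the untrained wildtype mouse lay inside the trained range. In limma the log2 change was -0.03 (SE 0.15, limma adjusted p = 0.983) with a 95% interval of -0.35 to 0.29. Pfkl had a log2 change of -0.09 (SE 0.25, limma adjusted p = 0.967) and Pfkp of -0.31 (SE 0.23, limma adjusted p = 0.813). Pfkfb2, the heart form of the enzyme that makes the phosphofructokinase activator fructose 2,6-bisphosphate, read 535, 1282, 830.1 and 679 in the trained plakoglobin (+/-) mice, 669, 714, 688 and 408 in the trained wildtype mice, 1078 in the untrained plakoglobin (+/-) mouse and 666 in the untrained wildtype mouse. The highest value was in a trained plakoglobin (+/-) mouse and the lowest in a trained wildtype mouse. The log2 change was -0.41 (SE 0.47, limma adjusted p = 0.894). Pfkfb3, the inducible form, was too dim to be tested, at 141 to 1135 in trained mice on its brighter probe set.

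Between aldolase and pyruvate kinase, glycolysis makes its ATP. Eno3, the muscle form of enolase, gave 116727, 95586, 103020.2 and 108463 in the trained plakoglobin (+/-) mice, 113655, 123039, 96437 and 111058 in the trained wildtype mice, 86459.8 in the untrained plakoglobin (+/-) mouse and 93164 in the untrained wildtype mouse. Every trained mouse exceeded both untrained mice. In limma the log2 change was 0.31 (SE 0.15, unadjusted p = 0.0706, limma adjusted p = 0.635), with a 95% interval of -0.03 to 0.65. With 1 female left out it lay between 0.27 and 0.34, whereas leaving out a trained male cannot move it. Pgk1, phosphoglycerate kinase, gave 48378, 36731, 28138 and 27776 in the trained plakoglobin (+/-) mice, 44323, 37648, 35576 and 34123 in the trained wildtype mice, 23834 in the untrained plakoglobin (+/-) mouse and 22355 in the untrained wildtype mouse on probe set 1438640_x_at. Again all trained mice were above the untrained ones, and the 3 highest were on the arrays of high GAPDH ratio. The log2 change there was 0.46 (SE 0.19, unadjusted p = 0.0387, limma adjusted p = 0.524), but the brightest Pgk1 probe set, 1417864_at, gave -0.09 (SE 0.18, limma adjusted p = 0.954) and the dimmest gave 0.13. The suffix x_at marks probe sets some of whose probes can match other sequences as well.

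The other genes of this stretch had training changes in both directions. Aldoa, the muscle aldolase, had log2 changes of -0.17, -0.14, -0.20 and 0.07 on its 4 probe sets. Tpi1, triose phosphate isomerase, had 0.15, -0.20 and 0.05. Aldoc, the brain-type aldolase, was dim and gave 0.18 (SE 0.55, limma adjusted p = 0.973). The phosphoglycerate mutases Pgam1 and Pgam2 gave 0.23 and 0.11, and pyruvate kinase Pkm gave -0.25 (SE 0.19, limma adjusted p = 0.808). Eno2, the neuronal enolase, read 52 to 490.1 in trained mice, 389 in the untrained plakoglobin (+/-) mouse and 419.5 in the untrained wildtype mouse, and in the fit with no filter its log2 change was -0.86 (SE 0.70, limma adjusted p = 0.825). Gapdh, glyceraldehyde phosphate dehydrogenase, gave 144143, 151359.9, 136202 and 161266 in the trained plakoglobin (+/-) mice, 144960.2, 135598, 170547 and 170689.7 in the trained wildtype mice, 179238 in the untrained plakoglobin (+/-) mouse and 178269 in the untrained wildtype mouse on its 3' control probe set. All trained mice were below both untrained mice, by -0.25 on the log2 scale with a limma adjusted p of 0.812 when the control probe sets were added to the fit. In that fit the middle and 5' control probe sets gave -0.70 (SE 0.57, adjusted p = 0.827) and -1.34 (SE 1.24, adjusted p = 0.856).

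For the lactate dehydrogenases, Ldha encodes the muscle subunit and Ldhb the heart subunit, and together they form the tetramer that interconverts pyruvate and lactate. Ldha stood at 65659, 62302, 61013 and 58173 in the trained plakoglobin (+/-) mice, 68534, 68607, 55012 and 69024 in the trained wildtype mice, 68846 in the untrained plakoglobin (+/-) mouse and 52429.7 in the untrained wildtype mouse. The untrained wildtype mouse was the lowest of all, and the untrained plakoglobin (+/-) mouse lay next to the highest. The log2 change was 0.09 (SE 0.17, limma adjusted p = 0.946). Ldhb gave 131067, 101055, 78921 and 86786 in the trained plakoglobin (+/-) mice, 119812, 130006, 74394 and 90254 in the trained wildtype mice, 110652 in the untrained plakoglobin (+/-) mouse and 90598 in the untrained wildtype mouse on its brightest probe set. The untrained mice lay inside the trained range, and the 3 highest values came from the arrays of high GAPDH ratio. Its 4 probe sets had log2 changes of -0.08, -0.02, -0.18 and -0.16.

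The pyruvate dehydrogenase complex held the lowest unadjusted p of the list. Dlat, which encodes the E2 core enzyme dihydrolipoyl transacetylase, gave 14784, 11479.7, 16079 and 15624 in the trained plakoglobin (+/-) mice, 13487, 19062, 16249 and 17326 in the trained wildtype mice, 10799.8 in the untrained plakoglobin (+/-) mouse and 12389.5 in the untrained wildtype mouse on probe set 1426264_at. Only 1 trained mouse lay below the untrained wildtype mouse, and none below the untrained plakoglobin (+/-) mouse. In limma the log2 change was 0.55 (SE 0.18, unadjusted p = 0.00925, limma adjusted p = 0.324), and it was 0.54 (limma adjusted p = 0.145) without the 3 arrays of high GAPDH ratio. A different Dlat probe set, 1452005_at, gave 11935, 10813, 11778 and 11573 in the trained plakoglobin (+/-) mice, 10157, 13874, 10609 and 11291 in the trained wildtype mice, 14207 in the untrained plakoglobin (+/-) mouse and 16365 in the untrained wildtype mouse. There every trained mouse was below both untrained mice, with a log2 change of -0.34 (SE 0.18, limma adjusted p = 0.674). The brightest Dlat probe set, 1426265_x_at, gave 0.04 (SE 0.18, limma adjusted p = 0.98), so the 3 probe sets of Dlat did not share a direction.

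Pdhb, the beta subunit of the E1 enzyme, gave 52590.3, 53880.2, 56117 and 59384 in the trained plakoglobin (+/-) mice, 51705, 65709, 62692 and 58486 in the trained wildtype mice, 97608 in the untrained plakoglobin (+/-) mouse and 58068 in the untrained wildtype mouse on its brighter probe set. The untrained plakoglobin (+/-) mouse stood far above all others, and the untrained wildtype mouse was inside the trained range. The log2 change of -0.33 (SE 0.20, limma adjusted p = 0.744) moved to 0.09 without that untrained plakoglobin (+/-) mouse and to -0.76 without the untrained wildtype mouse. Its dimmer probe set, 1448214_at, gave 2382, 3092, 2401 and 2642 in the trained plakoglobin (+/-) mice, 2663, 2909, 2681 and 2215 in the trained wildtype mice, 3405 in the untrained plakoglobin (+/-) mouse and 3302 in the untrained wildtype mouse. On that one, all trained mice were below both untrained mice, and the log2 change was -0.41 (SE 0.22, limma adjusted p = 0.678). Pdha1, the alpha subunit, had a log2 change of -0.02 (SE 0.15, limma adjusted p = 0.991) and Dld, the E3 subunit that the complex shares with other dehydrogenases, of -0.07 (SE 0.21, limma adjusted p = 0.971). Mpc1, a subunit of the mitochondrial pyruvate carrier, had a log2 change of 0.09 (SE 0.15, limma adjusted p = 0.938). Of the inhibitory kinases, Pdk1 gave -0.43 (SE 0.30, limma adjusted p = 0.792) and Pdk2 -0.02 (SE 0.48, limma adjusted p = 0.996).

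**Figure D2:**
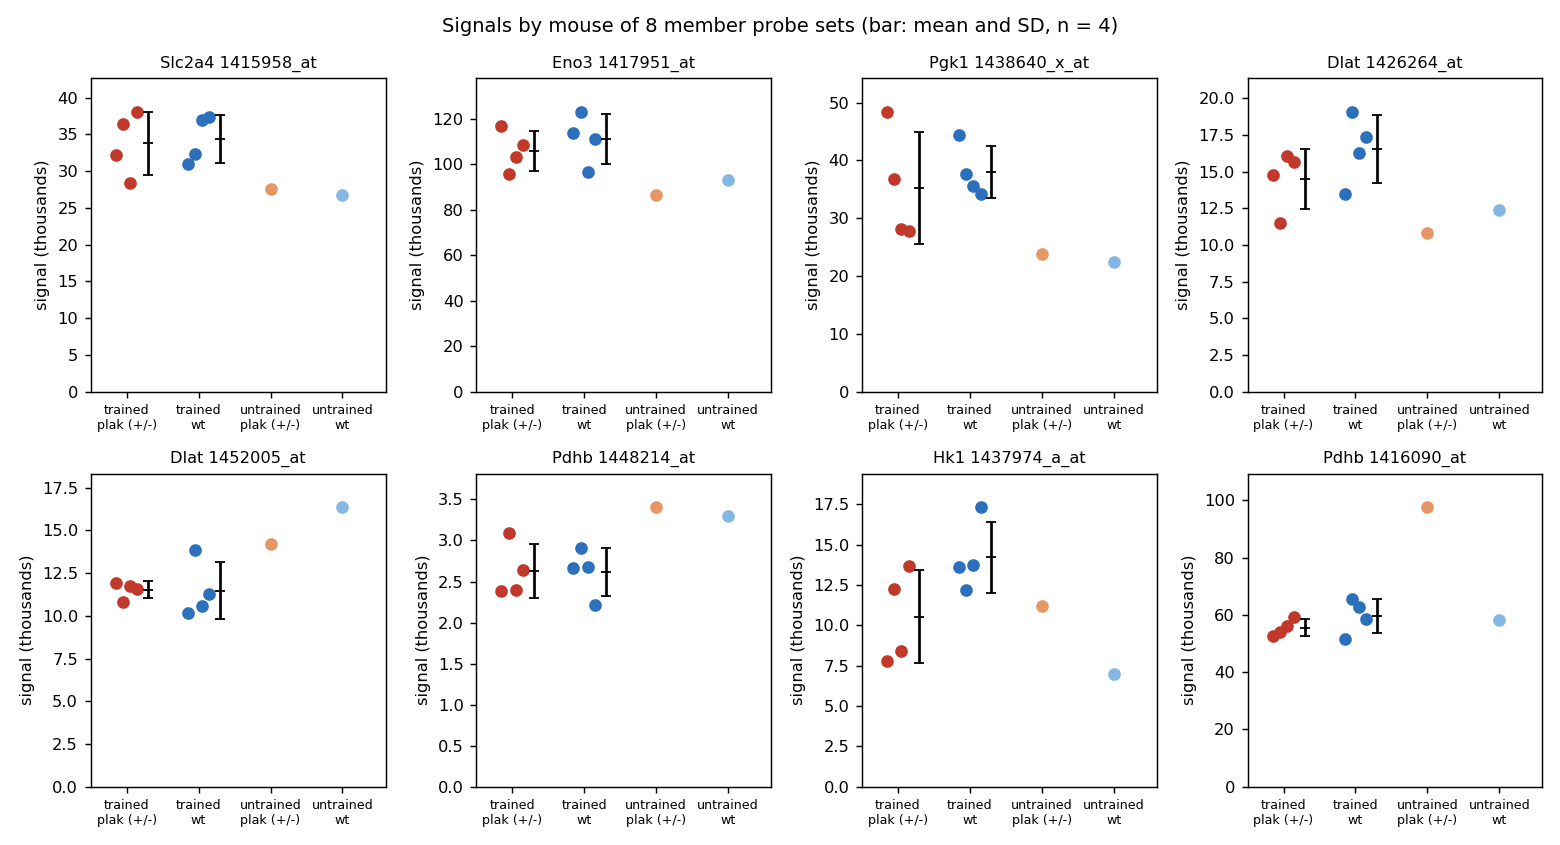
MAS5 signals (in units of 1000, linear axes from 0) of 8 member probe sets in each mouse, by group; plak (+/-) stands for plakoglobin (+/-) and wt for wildtype, and the bars give mean and SD of the 4 trained mice of a genotype. For Slc2a4, Eno3 and Pgk1 all 8 trained points lie above the 2 untrained ones, for Dlat 1452005_at and Pdhb 1448214_at all lie below, and for Pdhb 1416090_at 1 untrained mouse is high.

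The precision of these changes bounds what could have been seen. With 2 untrained mice, the SE of a tested member gene lay between 0.15 and 0.55 on the log2 scale, with a median of 0.21. The 95% interval lay within a 2-fold change in either direction for 20 of 26 genes, and Slc2a1, Hk1, Pfkfb2, Aldoc, Pdk1 and Pdk2 had intervals reaching beyond it. Of the marker lists, 3 had sums that did not overlap between trained and untrained mice. The 4 atrial myocyte markers summed to 20726 to 37330 in trained mice, against 5736 and 6706 in the untrained plakoglobin (+/-) and wildtype mice. Nppa carried this sum, at 18636 to 34501 in trained mice, against 3966 and 4351 in the same untrained mice. Of the 2 atrial markers tested, Nppa was called higher with training, at a log2 change of 2.66 (limma adjusted p = 0.0011), where 0.626% of all probe sets were called in either direction. Myl7, Myl4 and Sln overlapped between trained and untrained mice, and Myl7 was at or under the floor of 104 on 3 arrays and Sln on 1. The 5 endothelial markers summed to 15543 to 19250.5 in trained mice, against 23013 and 19414 in the untrained plakoglobin (+/-) and wildtype mice. Taken singly, each of these 5 genes overlapped between trained and untrained mice. The 2 adipocyte markers on the array summed to 149.5 to 1041 in trained mice, against 133 and 132.5 in the same untrained mice. Adipoq was at or under the floor on 5 arrays and Lep on 2, in each case with both untrained mice among them. Neither was bright enough to be tested. The 5 leukocyte markers overlapped in their sum, at 14876 to 30184 in trained mice, against 27566 and 25753 in the untrained plakoglobin (+/-) and wildtype mice, but 3 of the 5 were lower at an unadjusted p under 0.05 with limma, with a median log2 change of -0.90 over the list. The highest trained mouse read 1032 for Ptprc and 6255 for C1qa, against 1319 and 6285 in the untrained plakoglobin (+/-) mouse and 1940 and 6931 in the untrained wildtype mouse. These were 2 of 5 markers wholly lower in trained mice, against 4.61% of all probe sets, whereas Csf1r, Adgre1 and Cd68 overlapped. Of the ventricular myocyte markers, Myl2 and Tnni3 were also lower in all trained mice than in both untrained mice. The sums for skeletal muscle, erythroid, fibroblast and neuronal or Schwann cell markers overlapped. The part of these markers in the member values was not tested.

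**Figure D3:**
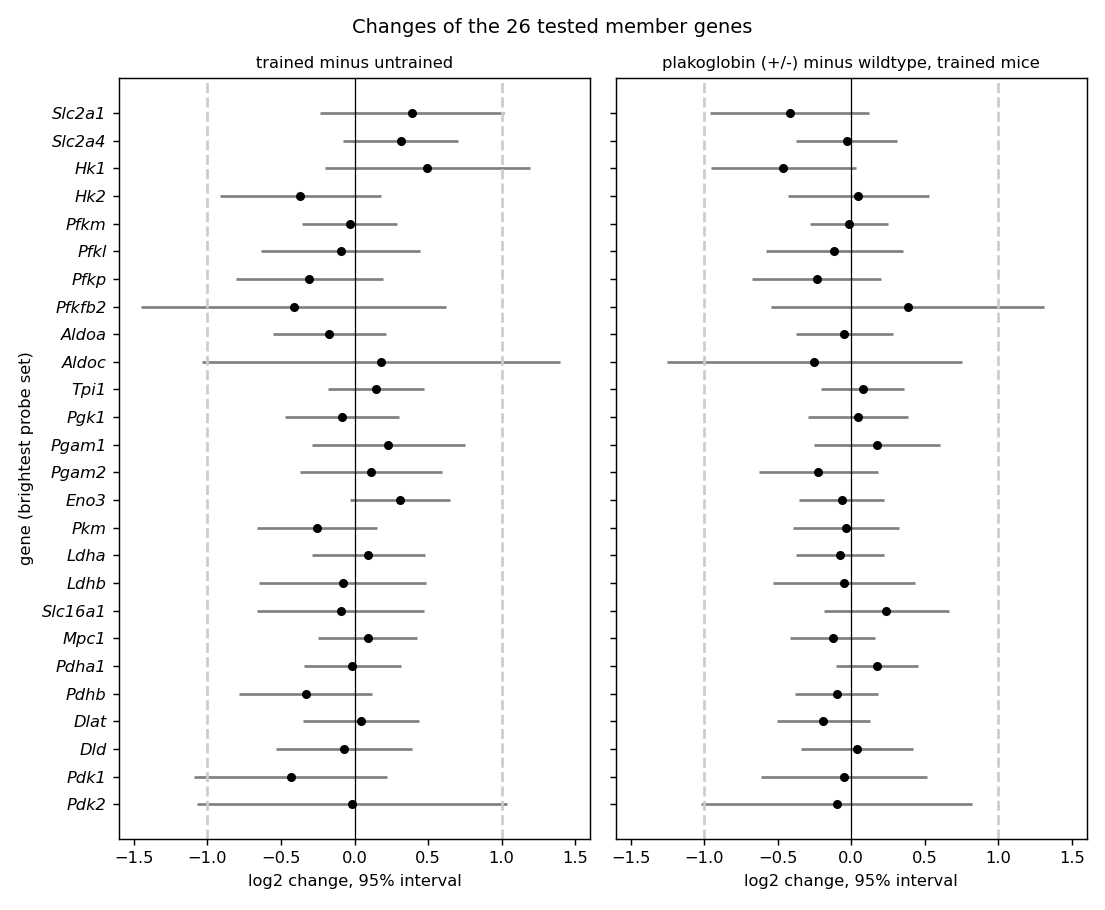
Log2 changes of the 26 tested member genes (1 probe set each, points) with 95% intervals from limma, for trained minus untrained mice on the left and for plakoglobin (+/-) minus wildtype among trained mice on the right; dashed lines mark a 2-fold change. Points lie between -0.43 and 0.50 on the left and between -0.46 and 0.38 on the right, and every interval includes 0.

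Between trained plakoglobin (+/-) and trained wildtype mice no member passed either. With limma, 0 of 46 member probe sets had an adjusted p under 0.05 and 0% of all 13576 did. At an unadjusted p under 0.05 the counts were 0 of 46 members and 2.01% of all probe sets. In no member probe set were the 4 mice of a genotype all above or all below the 4 of the other, which 1.6% of all probe sets showed. The median log2 difference, plakoglobin (+/-) minus wildtype, was -0.06 over the members and 0.01 over all, with 14 differences above 0 and 32 below.

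Hk1 had the lowest unadjusted p, with signals of 7777, 12268, 8416 and 13692 in the trained plakoglobin (+/-) mice, against 13607, 12208, 13715 and 17319 in the trained wildtype mice. The 2 lowest values belonged to plakoglobin (+/-) mice and the highest to a wildtype mouse, with overlap between them. The means were 10538 ± 2891 in plakoglobin (+/-) and 14212 ± 2182 in wildtype mice (SD, n = 4 each), and the log2 difference was -0.46 (SE 0.22, unadjusted p = 0.0645, limma adjusted p = 1). Its other probe set gave -0.16 (SE 1.05, limma adjusted p = 1). Slc2a1 averaged 1834 ± 555 in plakoglobin (+/-) and 2399.8 ± 471 in wildtype mice (SD, n = 4 each). Both genotypes overlapped, with the lowest 2 values in plakoglobin (+/-) mice. The log2 difference was -0.42 (SE 0.24, unadjusted p = 0.115, limma adjusted p = 1), and the other Slc2a1 probe sets gave -0.37 and 0.25.

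Pdha1 had the next lowest unadjusted p, at 104392, 128176, 122052 and 111730.5 in the trained plakoglobin (+/-) mice, against 94857, 114732, 95742 and 107473 in the trained wildtype mice. Its 2 highest values were in plakoglobin (+/-) and its 2 lowest in wildtype mice, and the log2 difference was 0.18 (SE 0.13, limma adjusted p = 1). Dlat followed, at 16610.0, 15293, 18065 and 17621 in the trained plakoglobin (+/-) mice, against 15499, 21550.2, 18679 and 21885 in the trained wildtype mice. The 3 highest were wildtype mice, and the log2 difference was -0.19 (SE 0.14, limma adjusted p = 1). Slc16a1 stood at a log2 difference of 0.24 (SE 0.19, limma adjusted p = 1) and Slc2a4 at -0.03 (SE 0.15, limma adjusted p = 1). The other Slc2a4 probe set gave 0.98 (SE 0.99, limma adjusted p = 1), the widest genotype gap between probe sets of 1 member gene. For the muscle-type enzymes the differences were 0.05 for Hk2, -0.02 for Pfkm, -0.05 for Aldoa, -0.22 for Pgam2, -0.07 for Eno3 and -0.07 for Ldha. The SE of a member gene lay between 0.12 and 0.45, with a median of 0.18, and the 95% interval lay within a 2-fold difference for 23 of 26 genes. Pfkfb2, Aldoc and Pdk2 were the exceptions.

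Whether the genotypes differed in their change with training rests on 1 untrained mouse per genotype, and in that pair the Jup order was opposite to the order in trained mice. With limma, 0 of 46 members passed the interaction test, as did 0% of all probe sets, and 2 of 46 had an unadjusted p under 0.05, against 3.2% of all. Pdhb on 1416090_at had the lowest, with an interaction of -0.85 (SE 0.28, unadjusted p = 0.0137, limma adjusted p = 1). On that probe set the untrained mouse labelled plakoglobin (+/-) read 97608, against 58068 in the one labelled wildtype, while all trained mice read between 51705 and 65709. The other Pdhb probe set gave -0.04 (SE 0.41, limma adjusted p = 1). Hk1 had an interaction of -1.14 (SE 0.50, unadjusted p = 0.046, limma adjusted p = 1), and there the untrained mouse labelled plakoglobin (+/-) read 11203, against 7011 in the one labelled wildtype. Its other probe set gave 0.02 (SE 2.38, limma adjusted p = 1). Slc16a1 gave 0.81 (SE 0.43, limma adjusted p = 1) and Aldoa on 1439375_x_at gave -0.59 (SE 0.36, limma adjusted p = 1), where the other Aldoa probe sets gave 0.07, -0.23 and 0.24. In Slc16a1 the untrained mouse labelled plakoglobin (+/-) read 21384, below the 31713 of the one labelled wildtype.

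Sex was balanced over the genotypes in the trained mice. Of the tested members, Pgk1 and Pdha1 lie on the X chromosome in RefSeq. With limma, 0 of 46 members passed between males and females, against 0.0516% of all probe sets, and 2 of 46 had an unadjusted p under 0.05, against 8.82% of all. Pgk1 on 1438640_x_at gave 48378, 36731, 44323 and 35576 in males, against 28138, 27776, 37648 and 34123 in females. The 2 lowest values were in females, and the sexes overlapped. The log2 difference, male minus female, was 0.37 (SE 0.16, unadjusted p = 0.0483, limma adjusted p = 0.563). Pfkl read 13826, 12625, 15614 and 10175 in males, against 6898, 10233, 9298 and 11509 in females on its brighter probe set. The 3 highest values were in males. The log2 difference was 0.47 (SE 0.21, unadjusted p = 0.0487, limma adjusted p = 0.563) there and 0.38 (SE 0.19, limma adjusted p = 0.581) on the other Pfkl probe set. Without the 3 arrays of high GAPDH ratio, which come from 2 males and 1 female, the brighter Pfkl probe set gave 0.26 and the Pgk1 probe set 0.25.

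In males against females, Dlat gave a log2 difference of -0.29 (SE 0.15, limma adjusted p = 0.6) on 1426264_at and -0.26 (SE 0.14, limma adjusted p = 0.615) on 1426265_x_at. Pdha1 gave -0.12 (SE 0.13, limma adjusted p = 0.798) on its brighter probe set. On its other probe set, 1449137_at, it gave -1.13 (SE 0.60, limma adjusted p = 0.6), and 0.14 without the 3 arrays. The test of whether the genotype difference depended on sex called 0 of 46 members, with 0 of 46 at an unadjusted p under 0.05, against 0% and 2.66% of all probe sets. Its lowest unadjusted p values were for Ldhb on 1455235_x_at, at 0.81 (SE 0.37, limma adjusted p = 1), Pkm, at 0.56 (SE 0.30, limma adjusted p = 1), and Slc2a1, at -0.80 (SE 0.44, limma adjusted p = 1). The other 3 Ldhb probe sets gave 0.67, 0.23 and 0.15. The median interaction was 0.18 over the members and -0.04 over all probe sets, with 33 of 46 members above 0, and over the members it was 0.07 without the 3 arrays.

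The balance between paired isoforms of the same step was followed within each mouse as the log2 ratio of their signals. A change in the ratio shows unequal change of its parts, and no level is read from it. Of 8 pairs planned, 7 could be formed. By genotype, Pgam2/Pgam1, the muscle over the widespread phosphoglycerate mutase, was the pair whose groups did not overlap. Its log2 ratios were 3.39, 3.37, 3.41 and 3.57 in trained plakoglobin (+/-) mice, against 4.04, 3.85, 3.75 and 3.70 in trained wildtype mice. All plakoglobin (+/-) values lay below all wildtype values. The means were 3.43 ± 0.09 in plakoglobin (+/-) and 3.84 ± 0.15 in wildtype mice (SD, n = 4 each), a difference of -0.40. A two-sided exact permutation test gave p = 0.0286, the smallest that 70 labelings allow, and 0.2 after adjustment over the 7 pairs. The untrained pair ran the other way, at 3.98 on the array labelled plakoglobin (+/-) and 3.51 on the array labelled wildtype. Groups that do not overlap stay apart whichever mice are left out, so leaving mice out does not test the separation. Without the 3 arrays of high GAPDH ratio, on which Pgam2 was highest, the difference was -0.28. That leaves 3 plakoglobin (+/-) and 2 wildtype mice with 10 labelings, too few for an exact permutation test to pass the threshold in any pair.

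For the other 6 pairs the genotypes overlapped. Slc2a4/Slc2a1 had log2 ratios of 4.65, 4.67, 3.61 and 4.05 in plakoglobin (+/-), against 4.01, 3.94, 3.64 and 3.85 in wildtype mice. The spread was wider in plakoglobin (+/-) mice, and the difference of 0.39 had an exact permutation p of 0.229. Hk2/Hk1 differed by 0.51 (exact permutation p = 0.314). Pfkm/Pfkl differed by 0.10, Aldoa/Aldoc by 0.20, Ldha/Ldhb by -0.02 and Pdk2/Pdk1 by -0.05.

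Between trained and untrained mice none of the 7 ratios reached the smallest p that 45 labelings allow, 0.0222. Hk2/Hk1 showed the lowest p, with a mean log2 ratio of 0.72 ± 0.62 in trained mice (SD, n = 8), against 0.98 and 1.83 in the untrained plakoglobin (+/-) and wildtype mice. The trained range took in the untrained plakoglobin (+/-) mouse and, through 1 trained mouse at 1.92, the untrained wildtype mouse too. The difference was -0.69 with an exact permutation p of 0.2. Ldha/Ldhb was -0.65 ± 0.24 in trained mice (SD, n = 8) and -0.68 and -0.79 in the untrained plakoglobin (+/-) and wildtype mice, a difference of 0.09 (exact permutation p = 0.711). Slc2a4/Slc2a1 differed by 0.12 and Pgam2/Pgam1 by -0.11.

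**Figure D4:**
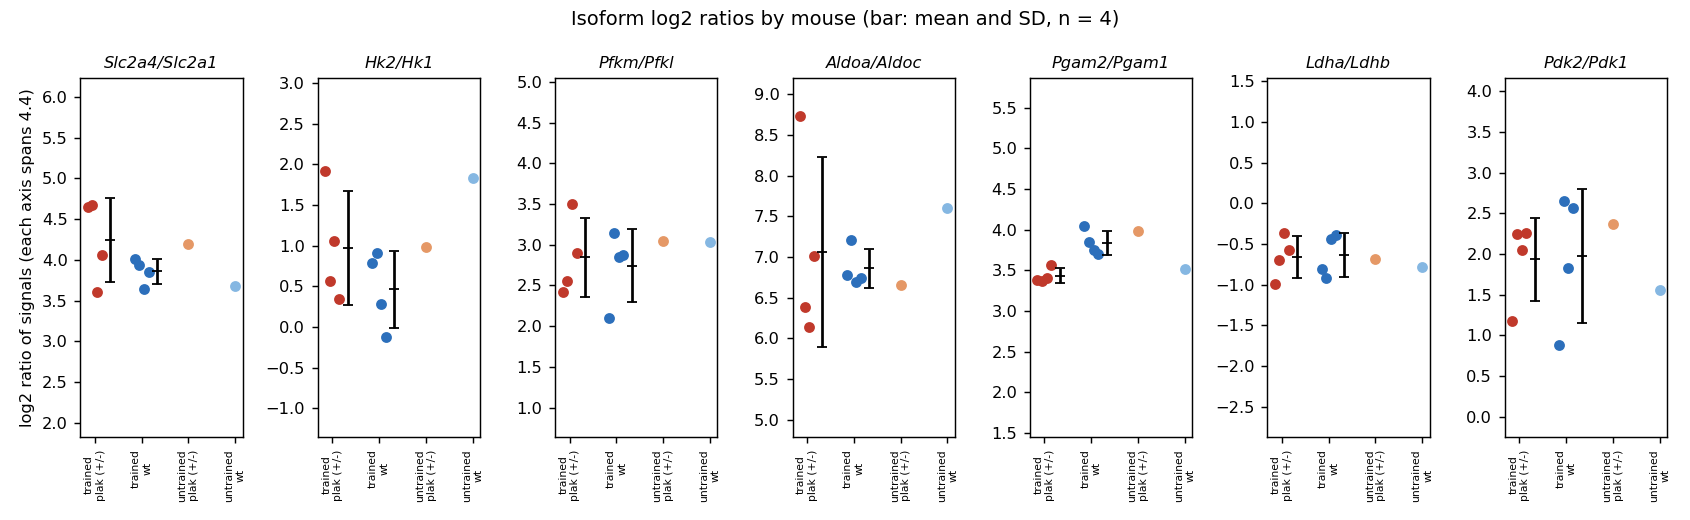
Log2 ratio of the signals of 7 isoform pairs in each mouse, by group (plak (+/-) is plakoglobin (+/-), wt is wildtype); bars give mean and SD of the 4 trained mice of a genotype, and all vertical axes span an equal range around their own mean. Only for Pgam2/Pgam1 do the trained genotypes separate, with all 4 plakoglobin (+/-) mice below the 4 wildtype mice.

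Probe sets of the same gene often gave different answers, which bears on every value above. Of the 12 member genes with several tested probe sets, 8 had log2 changes of opposite sign for training and 7 for genotype. The widest gap for training was in Slc2a4, at 0.32 on 1415958_at against -1.30 on 1415959_at. The signals of 1415959_at were 3956, 24820.1, 15449 and 20508 in the trained plakoglobin (+/-) mice, 6147, 782, 22512 and 18881 in the trained wildtype mice, 22438 in the untrained plakoglobin (+/-) mouse and 18432 in the untrained wildtype mouse. The 3 arrays of high GAPDH ratio read 782 to 6147, against 15449 to 24820 on the other 7. Without those arrays its training change was -0.18, against 0.35 for 1415958_at.

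The same 3 arrays were low on a further pair of member probe sets. For Hk1, 1420901_a_at read 204 to 2053 on them, against 4180 to 8093 on the other 7, while the brighter Hk1 probe set overlapped. For Pdha1, 1449137_at read 10781 to 53614, against 54599 to 77139. The Gapdh control showed the same order from end to end: 7606 to 57944 against 135914 to 200778 at the 5' end, 45115 to 126516 against 160874 to 220266 in the middle, and 135598 to 144960 against 136202 to 179238 at the 3' end. In all, 3 of 46 member probe sets lay wholly lower on the 3 arrays and 6 wholly higher, against 5.89% lower and 4.26% higher over all probe sets. The 6 higher ones were Pgk1 1438640_x_at, Pgam2, Eno3 and 3 of the 4 Ldhb probe sets. For Eno3 they read 113655 to 123039 on the 3 arrays and 86460 to 111059 on the other 7. The positions of the probe sets along their transcripts are not given in the sources used here.

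**Figure D5:**
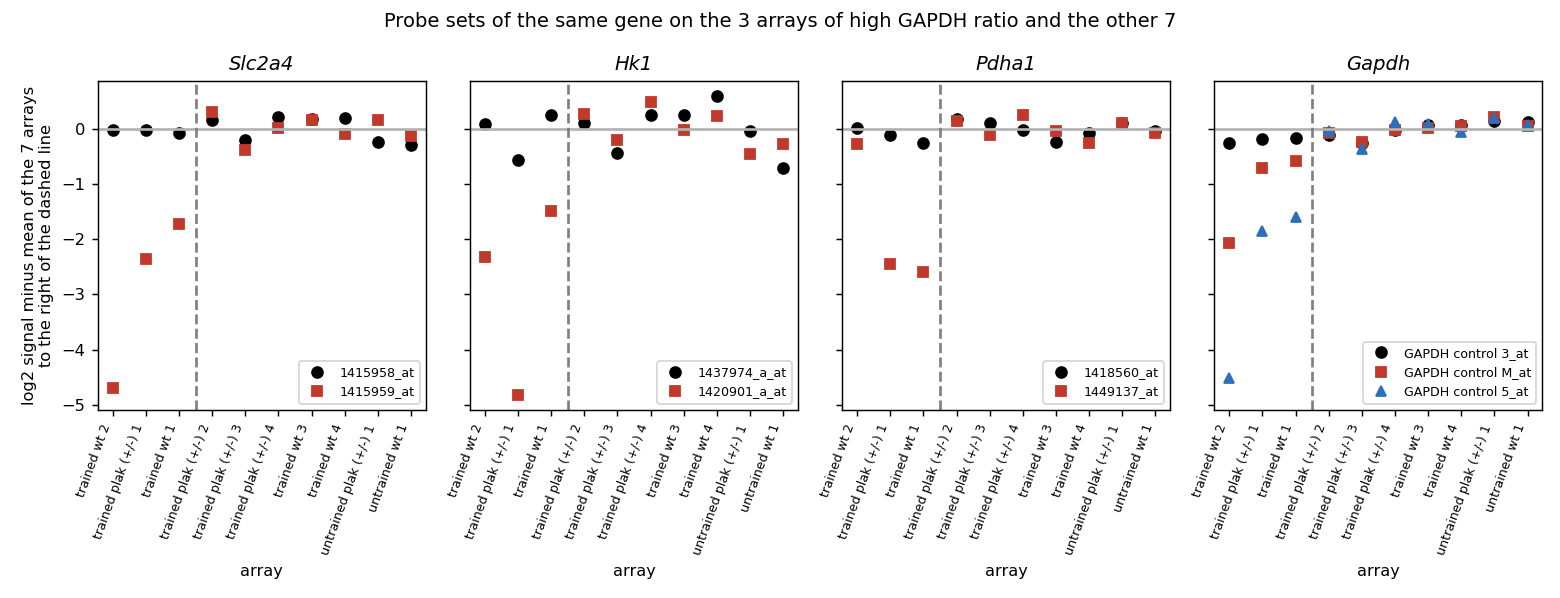
Log2 signal of each probe set of Slc2a4, Hk1, Pdha1 and Gapdh on the 10 arrays, as the difference from its mean over the 7 arrays of low GAPDH ratio; the 3 arrays of high ratio stand left of the dashed line (plak (+/-) is plakoglobin (+/-), wt is wildtype). On those 3 arrays 1 probe set of Slc2a4 and of Hk1 lies far below the other, for Pdha1 this holds on 2 of the 3, and for Gapdh the 5' control lies lowest and the 3' control nearest to 0.

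The members varied less among trained mice than most of the array. The median SD of the log2 signal over the 8 trained mice was 0.26 for the 46 member probe sets and 0.38 for all 13576, and the members were also brighter, with a median mean log2 signal of 14.6 against 11.0. Among the tested probe sets that represent a gene, the smallest SDs were those of Tpi1 and Pfkm and the largest those of Pdk2 and Aldoc. Pdk2 gave 6064, 18578, 9319.5 and 20438 in the trained plakoglobin (+/-) mice, 6168, 17745, 15801 and 16284 in the trained wildtype mice, 17421 in the untrained plakoglobin (+/-) mouse and 13781 in the untrained wildtype mouse. The 2 lowest mice, of different genotype, were both on arrays of high GAPDH ratio, and without those arrays the male minus female difference of Pdk2 was 0.23, against -0.58 with them.

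The wider pathway was read from 39 further genes, of which 28 were on the array and 21 were tested, and limma called 0 of 21 in any of the 5 comparisons. For training 3 of the 21 had an unadjusted p under 0.05, against 8.68% of all probe sets. Pdk4, the kinase of the pyruvate dehydrogenase complex that fasting and fatty acids induce, averaged 21650 ± 9384 in trained mice (SD, n = 8), against 41480 and 40017 in the untrained plakoglobin (+/-) and wildtype mice, a log2 change of -1.26 (SE 0.38, limma adjusted p = 0.285). Fbp2, the muscle fructose bisphosphatase, averaged 1901 ± 604 in trained mice (SD, n = 8), against 3880 and 3452 in the same untrained mice, a log2 change of -1.18 (SE 0.43, limma adjusted p = 0.416). Slc16a8, a lactate carrier known from retinal pigment epithelium, had 1.39 (SE 0.52, limma adjusted p = 0.43). By genotype the lowest unadjusted p of these genes was that of Adpgk, an ADP-dependent glucokinase, at 0.93 (SE 0.41, limma adjusted p = 1). Between males and females it was that of Txnip, which restrains glucose uptake, at 1.23 (SE 0.19, limma adjusted p = 0.0761), the lowest adjusted p of the members and these genes in the 5 comparisons.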

How the data were processed

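One array was hybridised per mouse. The signals used here are intensity values on a linear scale that the authors computed with MAS5 5.0, per the submitters' processing notes, and no further step is stated. Scanner files and detection calls were not used here. Groups follow the labels; replicate numbers are only names.

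Values below 104 (the 10th percentile over the whole table) were set to it before taking log2. A probe set was tested if its mean log2 value reached the 40th percentile and it was no control (64 were), which left 13576. These entered limma 3.58.1 under R 4.3.3, with lmFit and trended eBayes, two-sided and adjusted by Benjamini-Hochberg across all of them at 0.05. The training fit held every mouse, genotype and sex being covariates; genotype and sex were compared in 1 fit of the 8 trained mice; each interaction was 1 added term, in which a lone untrained mouse is assumed to vary like the others. Isoform log2 ratios, for 7 of 8 planned pairs because Eno1 was not listed, had exact permutation tests. The fits were checked on simulated data. The p-values measure only the spread among these mice, whose number limits the precision.

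The platform annotation gave 1 symbol for 20393 probe sets, several for 691 and none for 1606, and the brightest probe set represents a gene. Members and lists were chosen with earlier results of these data known. Values in every mouse are given for up to 4 members per comparison with the lowest unadjusted p and for 1 member of each isoform pair; further members shown so were chosen after their values were seen. Of the other pathway genes, up to 5 per comparison were to be named. Promoter sequences came from RefSeq (GRCm38.p6). Alternatives covered quantile normalization, the floor, the filter, the eBayes settings, the sex term, females only, all mice in the genotype fit, the GAPDH ratio, the mean of all probe sets for the ratios and each mouse left out. Keeping the control probe sets was chosen after seeing the data.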

Additional observations from a re-analysis of the deposited data

Results flagged for a closer look

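In 7 of 92 groups of 4 trained mice, 1 mouse stood apart from the other 3 by more than the 95% limit of Dixon's test, and chance alone sets apart about 1 in 20 groups. Hk2 read 29445 in trained plakoglobin (+/-) replicate 1, against 17323 to 18074 in the other 3 mice of that group. In the same mouse Pgk1 on probe set 1439435_x_at read 6301, against 3738 to 4129 in the others. Pgam1 there read 5635, against 3931 to 3988. Pdk2 in trained wildtype replicate 1 read 6168, against 15801 to 17745. These 4 values come from arrays whose GAPDH control had a high ratio of 3' to 5' signal.

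The other 3 do not. Ldha read 55012 in trained wildtype replicate 3, against 68534 to 69024 in the other mice of that group. In trained wildtype replicate 4, Aldoa on 1416921_x_at read 124629, against 113285 to 114783. In that mouse Pfkfb2 on 1422092_at read 407.5, against 669 to 714.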

How the results depend on the processing

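In none of the 5 comparisons did a member pass the threshold under any alternative run. The isoform pairs could hardly pass by design, since a single pair whose groups do not overlap reaches 0.2 after adjustment over the 7 pairs, so their p values do not bear on stability. Among 1098 values of the member changes for training and genotype under other settings, 48 turned sign, in 35 of 92 results. Among 828 values with 1 mouse left out, 91 did, in 45 results. Many of these values could not turn, since the eBayes and filter settings and keeping the control probe sets do not alter a fitted change. Nor does leaving out a trained male alter a training change, so fewer values than these were open to turn. The lowest adjusted p of a member probe set in these limma fits was 0.145 for training (Dlat) and 0.709 for genotype (Slc2a1), both with the 3 high-ratio arrays left out. The median member change with training lay between -0.14 and -0.02 with 1 female left out, and leaving out a trained male cannot move it. The genotype median lay between -0.10 and 0.0046, being above 0 only without trained plakoglobin (+/-) replicate 3. Over all probe sets, training calls numbered 85 as reported, 10 without the untrained plakoglobin (+/-) mouse, 34 without the untrained wildtype mouse and 225 without the 3 arrays, where 6 of 46 members and 12.9% of all probe sets had an unadjusted p under 0.05. The genotype difference of Pgam2/Pgam1 lay between -0.45 and -0.28. Leaving out mice could not turn its sign, because the genotypes did not overlap. Genotype by training could not be estimated without either untrained mouse. No paired analysis was possible because the labels mark no littermates and the replicate numbers are only names. The brightness filter left Slc2a3, Pfkfb3 and Eno2 out of the fit reported. Eno2 was at or under the floor on 2 arrays, whereas the brightest probe sets of Slc2a3 and Pfkfb3 were above the floor on every array. Slc2a3 missed the limit narrowly, at a mean log2 signal of 9.3676 against 9.3686.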
